A study of Homo sapiens with 14 samples.

Results

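Gene expression after 6 h of dexamethasone at 25 nM, without any other agent, was compared with untreated cells in MM1S, an established human multiple myeloma line. Each group held 2 arrays, so the comparison drew on 4 of the 14 arrays of the series. The genes were those with a probe set of exactly 1 gene symbol and a log2 level of at least 4 on at least 2 of the 14 arrays, and each gene was represented by its probe set of highest mean. This left 9301 genes of the 19775 that had a named probe set. The cells of every group were kept in RPMI-1640 with fetal bovine serum. The other groups, also of 2 arrays each, received dexamethasone at 2 µM, salmeterol at 1 nM, CGS-21680 at 12.5 nM, or either agonist together with dexamethasone at 25 nM. Salmeterol is an agonist of a beta-adrenergic receptor and CGS-21680 of an adenosine receptor, and these agonists served here as a second setting for the same dose of dexamethasone. The labels call the replicates biological without saying how the cultures were separated. Each p-value sets a difference against the spread between replicate arrays, pooled over the 7 groups, and that spread may be technical. All samples came from 1 tumour cell line, and the labels give no time for the untreated cells.

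Dexamethasone is a synthetic glucocorticoid used to treat myeloma. It binds the glucocorticoid receptor, which is held in the cytoplasm by heat shock chaperones, and the bound receptor enters the nucleus, where it raises some genes from glucocorticoid response elements and lowers others, often by acting on further transcription factors. In lymphoid and plasma cells glucocorticoids are known to slow growth and to bring on death through proteins of the BCL2 family.

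Levels are log2 of the array intensity as the authors deposited it. A log2 difference of 1 is a doubling. The lowest value, shared by 37.6% to 40.1% of probe sets on each array, was 2.29, and a log2 level of 4 is used here as the bound of low signal. The median log2 level of the tested genes was 7.57 on either untreated array, and 7.54 and 7.61 on the dexamethasone arrays. Replicates correlated at 0.992 across genes in either group, within the range of 0.987 to 0.992 over the 7 groups. The number of arrays limits the precision, and 5.85% and 6.17% of genes had the same value on both arrays of a group. All 10 plasma cell markers on the array, such as the immunoglobulin chaperone MZB1 and the surface proteoglycan SDC1, lay at 4 or more on all 4 arrays. The 4 T cell, 3 myeloid and 3 epithelial markers lay below 4 on all 4, and the log2 of their summed intensity was 4.40 to 4.42, 3.87 to 3.88 and 4.07 to 4.11. COL1A1, a collagen chain of connective tissue, lay at 7.11 to 7.28 on the 4 arrays, while the other 5 stromal markers lay below 4, and the red cell gene HBB lay at 7.47 to 7.69. PECAM1, an adhesion protein of endothelium that plasma cells also carry, lay at 5.56 to 6.00, and VWF, the other endothelial marker, below 4. Of these markers of other cells 3 could be tested, and none passed in limma (0 at an unadjusted p under 0.05), with differences from -0.09 to 0.10. In bulk RNA, fewer cells of a type and less RNA per cell cannot be told apart.

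Dexamethasone at 25 nM changed 433 of the 9301 genes (4.66%) at an adjusted p under 0.05 in limma, with 230 genes higher (2.47%) and 203 lower (2.18%). At an unadjusted p under 0.05 there were 1630. More of the rises than of the falls were large. Among the genes that rose, 117 did so by at least 1 on the log2 scale, 28 by at least 2 and 8 by at least 3. Among those that fell, 65 did so by at least 1, 6 by at least 2 and 1 by at least 3. The median log2 difference was 1.02 for the genes that rose and -0.83 for those that fell. In all 433 genes both dexamethasone arrays lay outside the range of the untreated arrays. Such a separation alone was common, at 45.7% of all genes tested, with 22.3% higher and 23.3% lower. The spread behind each test was pooled over the 7 groups. With the 4 arrays alone 12 genes passed and all of them rose, namely BASP1, BMF, CTHRC1, DDIT4, FKBP5, HMGB3, HMGB3P1, KCNJ15, SMAP2, TSC22D3, TXNIP and ZFP36L2. No gene passed as lower there, although 1786 genes reached an unadjusted p under 0.05. Leaving out replicate 1 or 2 of the untreated group left 187 or 221 changed genes, and leaving out replicate 1 or 2 of the dexamethasone group left 191 or 204. Of the genes that rose, 85 passed in all 4 of these fits, and of those that fell, 48. Where a gene described here failed in such a fit, this is given beside it, and 63 of the 138 changed genes named here failed in none. Of those 63, only BASP1, BCL2L11, ATF3 and FBN1 lost their call under another of the alternatives apart from the fit on 4 arrays, each with the mean of its probe sets. With no filter on low levels, and so with 19775 genes tested, 281 changed.

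**Figure D1:**
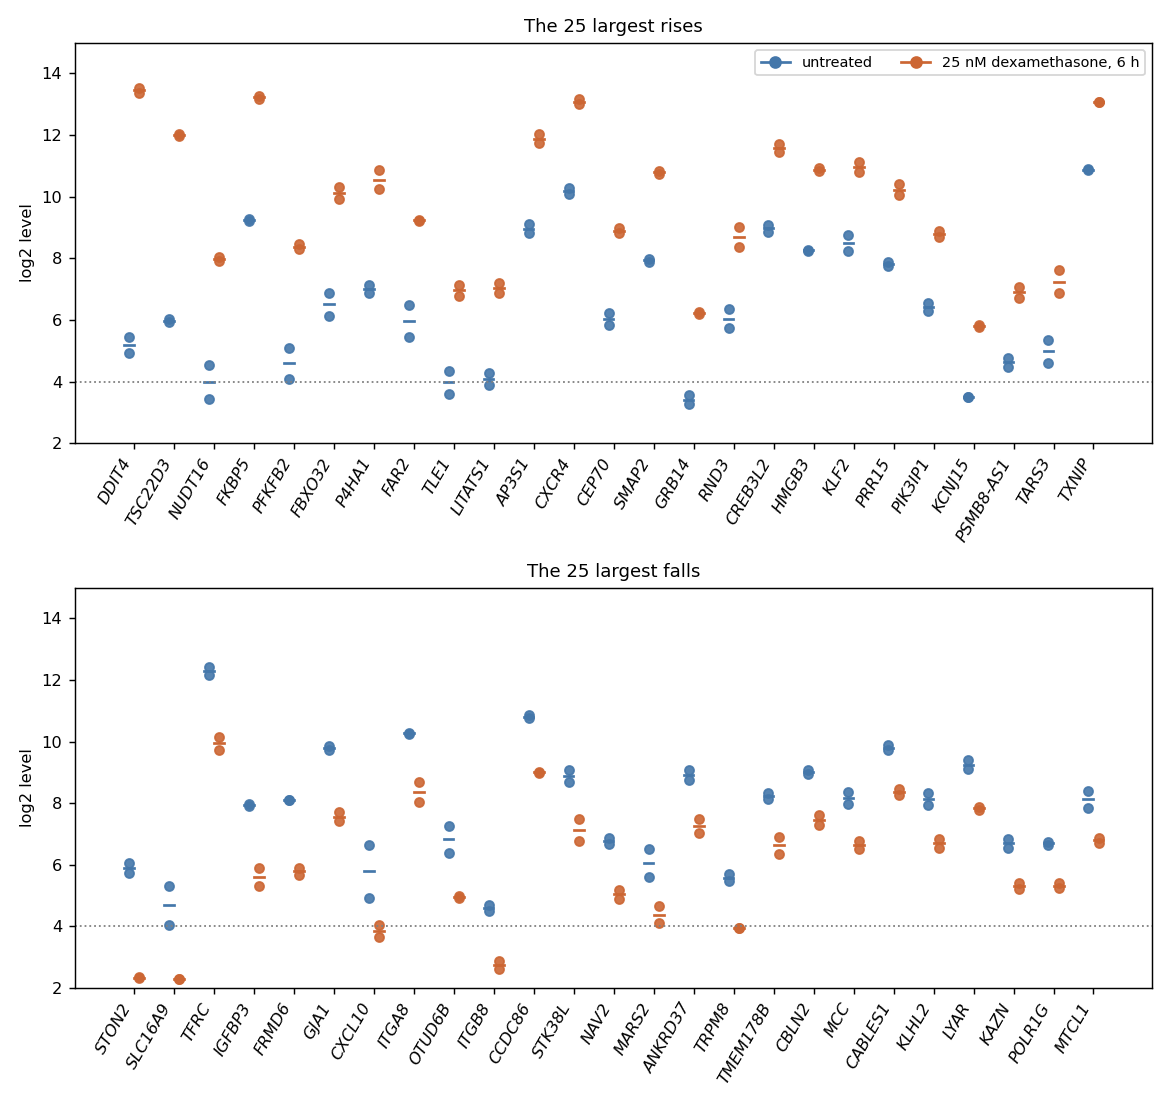
Log2 level on each array for the 25 genes with the largest rises (upper panel) and the 25 with the largest falls (lower panel) among the changed genes, each point an array, each short line the mean of 2 arrays, and the dotted line the level of 4. DDIT4 went from about 5 to over 13, and STON2 from about 6 to near the lowest value of the arrays.

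The largest rise was that of DDIT4, which encodes REDD1, an inhibitor of mTORC1 signalling. Its log2 level was 4.92 and 5.46 on the untreated arrays and 13.37 and 13.53 with dexamethasone, a difference of 8.26 ± 0.39 (SE; adjusted p = 6.33e-06), or 307-fold. TSC22D3, which encodes the glucocorticoid-induced leucine zipper GILZ, lay at 6.02 and 5.92 in untreated cells and at 11.97 and 12.04 with dexamethasone, a difference of 6.03 ± 0.24 (adjusted p = 2.70e-06). FKBP5, a cochaperone that restrains the receptor, lay at 9.27 and 9.22 and rose to 13.27 and 13.19. This difference of 3.98 ± 0.08 had the smallest adjusted p of the comparison, 1.23e-08. In these 3 genes replicates differed by at most 0.54, and no array of one group came near the other group.

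Among 33 tested genes known to be induced by glucocorticoids, 16 rose and 1 fell (51.5%, against 4.66% of all genes). The median log2 difference was 0.58, against 0 over all genes. This list, like the others here, was chosen with earlier results of these data known. CXCR4, the receptor for the chemokine that holds plasma cells in bone marrow, rose from 10.10 and 10.28 to 13.01 and 13.16 (difference 2.89 ± 0.19, adjusted p = 4.87e-05). TLE1, a corepressor, rose by 2.99 ± 0.25 from a low level of 4.34 and 3.60. ZFP36L2, a protein that speeds the decay of AU-rich mRNAs, lay at 10.82 and 10.74 and rose to 12.81 and 12.77. NFKBIA, the inhibitor that keeps NF-kappaB in the cytoplasm, rose by 1.21 ± 0.12 (adjusted p = 0.000768), and GLUL, glutamine synthetase, by 1.44 ± 0.15. BTG1, an antiproliferative factor, and NFIL3, a bZIP repressor, rose by 0.96 and 0.97. These genes passed whichever of the 4 arrays was left out.

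Other members of that list were less secure. KLF9, a zinc finger factor, rose by 1.76 ± 0.29 and RGS1, a regulator of G protein signalling, by 0.99 ± 0.17, but neither passed once any 1 of the 4 arrays was left out (adjusted p 0.0573 to 0.0780). The same held for SESN1, a stress-induced inhibitor of mTORC1 (0.64 ± 0.14, adjusted p 0.0649 to 0.225 in those fits), and for the NF-kappaB inhibitor TNFAIP3 (0.43 ± 0.10, adjusted p 0.133 to 0.195), whose call was also lost with quantile normalization (adjusted p = 0.0632). ZBTB16, a zinc finger repressor, passed the test (difference 0.97 ± 0.23, adjusted p = 0.0462) although all 4 arrays lay below 4, at 2.44 and 2.47 in untreated and 3.82 and 3.03 in treated cells, so no fold is given, and its call was lost once levels below 4 were raised to 4 and without any of the arrays but replicate 2 of the dexamethasone group (adjusted p 0.147 to 0.199). The kinase gene SGK1 went the other way, from 8.59 and 8.54 down to 7.85 and 8.08 (difference -0.60 ± 0.13, adjusted p = 0.0298). That fall also failed with any 1 array left out (adjusted p 0.0546 to 0.164). DUSP1, a MAP kinase phosphatase, did not pass, with a difference of 0.31 ± 0.17 and overlapping arrays (6.17 and 6.54 untreated, 6.49 and 6.84 treated). The clock gene PER1 was not analysed here.

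TXNIP, which binds thioredoxin and limits glucose uptake, was the member of this list whose promoter window held a palindromic glucocorticoid response element. Its log2 level was 10.89 and 10.86 in untreated and 13.07 and 13.08 in treated cells, a difference of 2.20 ± 0.12 (adjusted p = 1.78e-05), and the 2 arrays of a group differed by at most 0.03. The window shown runs from 250 bases before to 50 bases after the start of the gene in RefSeq (GRCh38.p14, chr1:145996530-145996829, minus strand, printed 5′ to 3′ along the gene), and the capitals mark the match to GNACANNNTGTNC, whose leftmost base lies 175 bases before the start.

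TXNIP promoter: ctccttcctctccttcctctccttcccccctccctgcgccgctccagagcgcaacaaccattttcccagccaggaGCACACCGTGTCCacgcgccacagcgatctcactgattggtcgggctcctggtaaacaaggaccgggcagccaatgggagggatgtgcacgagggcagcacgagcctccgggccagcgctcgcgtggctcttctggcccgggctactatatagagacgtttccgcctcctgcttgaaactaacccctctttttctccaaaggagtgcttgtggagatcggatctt

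That motif reads the same on both strands. It occurred in 16 of the 7721 promoter windows matched to tested genes (0.207%), in 1 of 197 windows of genes that rose and in 0 of 179 windows of genes that fell. RefSeq held a window for 14 of the 16 glucocorticoid-induced genes that rose, and TXNIP was the only 1 of them with a match. A match is a description of the letters in 300 bases, and elements farther from the start were not examined.

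The receptor gene itself, NR3C1, did not pass the test. It lay at 9.98 and 10.25 in untreated and 9.93 and 10.30 in treated cells, with overlapping arrays and a difference of 0.00 ± 0.20, and 2 of its 4 probe sets differed in sign from the others. Of 25 tested genes for the receptor, its chaperones and its cofactors, FKBP5 was the only 1 that rose, and 4 fell (20.0%, against 4.66% of all genes). The chaperone HSP90AA1 fell from 13.02 and 12.89 to 12.13 and 11.99 (difference -0.90 ± 0.11, adjusted p = 0.00195). FKBP4, the cochaperone that competes with FKBP5 for the receptor complex, fell from 9.50 and 9.81 to 8.64 and 8.68 (adjusted p = 0.00548), or 2.00-fold, so that the pair moved in opposite directions. The chaperone DNAJA1 had a difference of -0.78 ± 0.12 but missed the threshold without replicate 1 of the dexamethasone group (adjusted p = 0.0516). CARM1, an arginine methyltransferase and coactivator, had a difference of -0.44 ± 0.09 and passed in none of the 4 fits with an array left out (adjusted p 0.0619 to 0.130).

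HSP90AA1, FKBP4 and DNAJA1 also belong to the heat shock proteins and chaperonins, of which more fell. Of 32 such genes tested, 10 fell and none rose (31.25%, against 4.66% of all genes). The median log2 difference was -0.37, and 29 of the 32 differences were negative. HSPA4L, an HSP110 family chaperone, fell from 7.25 and 6.85 to 5.90 and 6.01 (difference -1.10 ± 0.15, adjusted p = 0.00356). HSPH1, of the same family, had a difference of -1.05 ± 0.16, from 9.42 and 9.40 to 8.26 and 8.46. It missed the threshold without replicate 1 of the dexamethasone group (adjusted p = 0.0519). CHORDC1, an HSP90 cochaperone, went from 8.87 and 8.57 to 7.28 and 7.68, a difference of -1.24 ± 0.20, and did not pass without replicate 1 of either group (adjusted p 0.0645 to 0.0707). The mitochondrial chaperonin pair HSPD1 and HSPE1 and the cytosolic chaperonin subunits CCT2 and CCT5 differed by between -0.55 and -0.47, and these 4 passed in no fit with an array left out (adjusted p 0.0671 to 0.154). The list's count was 5 without replicate 1 of the untreated group, 3 without replicate 1 of the dexamethasone group, and 6 without replicate 2 of either. With quantile normalization or the replicate number as a block, 1 member also rose.

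**Figure D2:**
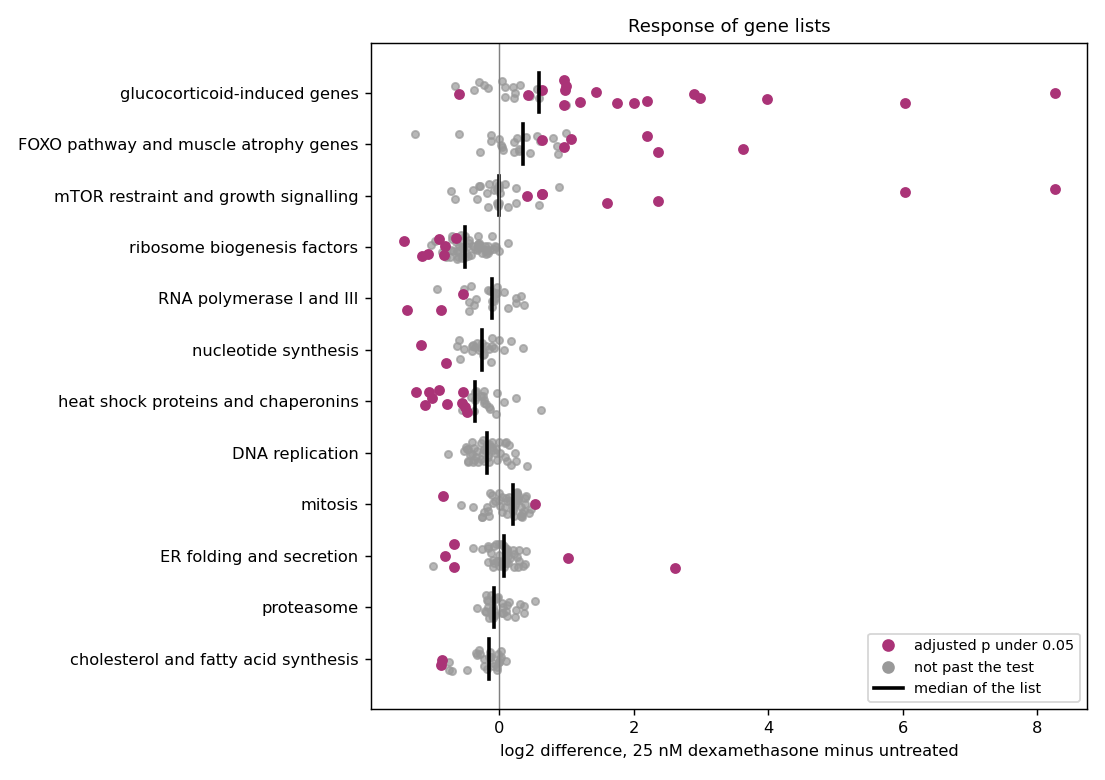
Log2 difference (25 nM dexamethasone minus untreated) of every tested member of 12 gene lists, with members past an adjusted p of 0.05 in purple and the median of each list as a black bar. The glucocorticoid-induced genes reach from -0.65 to 8.26, while ribosome biogenesis factors and heat shock proteins lie mostly below 0.

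Among genes of growth signalling, some that restrain it and some that carry it rose. Of 32 tested genes of mTOR restraint and growth factor signalling, 7 rose and none fell (21.9%, against 4.66% of all genes). The median was near 0, with 15 differences positive and 17 negative. Besides DDIT4 and TSC22D3 these were PIK3IP1, an inhibitor of PI3 kinase, the insulin receptor INSR, SESN1, the growth factor IGF1 and the phosphatase INPP5D. PIK3IP1 rose from 6.28 and 6.56 to 8.88 and 8.69 (difference 2.36 ± 0.27, adjusted p = 0.00135) and INSR from 8.89 and 9.00 to 10.65 and 10.44 (difference 1.60 ± 0.13, adjusted p = 0.000238). IGF1 and INPP5D differed by 0.64 and 0.41 and failed with any 1 array left out (adjusted p 0.112 to 0.229). INPP5D also failed with quantile normalization (adjusted p = 0.0749). The list shares DDIT4, SESN1 and TSC22D3 with the glucocorticoid-induced genes. The count was 4 in each of the 4 fits with an array left out, and 4 with no filter on low levels.

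Of 28 tested genes of the FOXO pathway and of muscle atrophy, 6 rose and none fell (21.4%, against 4.66% of all genes). The median log2 difference was 0.34. FBXO32, the ubiquitin ligase subunit atrogin-1, led them. It lay at 6.14 and 6.88 in untreated and at 9.92 and 10.33 in treated cells, a difference of 3.62 ± 0.30 (adjusted p = 0.000225), and all 6 of its probe sets were higher. YPEL5, a Yippee family protein, differed by 1.07 ± 0.22 but failed with any 1 array left out (adjusted p 0.0993 to 0.139). The other 4 were PIK3IP1, TXNIP, BTG1 and SESN1. FOXO1 itself, with a difference of 0.98, did not pass. The count was 4 in each fit with an array left out and 4 with no filter on low levels.

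Enzymes were among the largest rises. NUDT16, a hydrolase of inosine diphosphate and of RNA caps, rose by 3.99 ± 0.47 (adjusted p = 0.00156), from 4.55 and 3.42 to 8.03 and 7.92, and the mean of its 4 probe sets rose by 2.02. P4HA1, a subunit of collagen prolyl 4-hydroxylase, lay at 6.88 and 7.14 and rose to 10.26 and 10.86 (difference 3.55 ± 0.28, adjusted p = 0.000143). FAR2, a fatty acyl-CoA reductase, rose by 3.27 ± 0.42. PFKFB2, which sets the level of fructose 2,6-bisphosphate and thereby glycolysis, rose from 4.10 and 5.09 to 8.45 and 8.30 (difference 3.78 ± 0.30). Its value turned on the choice of probe set. The mean of its 3 probe sets rose by 1.94, and without replicate 1 or 2 of the dexamethasone group, where another probe set had the highest mean, the difference was 0.23 or 0.40 (adjusted p 0.633 to 0.836).

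Among other large rises, AP3S1, a subunit of the AP-3 adaptor of lysosomal traffic, went from 8.82 and 9.10 to 11.75 and 12.02 (difference 2.92 ± 0.13, adjusted p = 3.78e-06). SMAP2, an Arf GTPase-activating protein, went from 7.89 and 7.97 to 10.74 and 10.84 (difference 2.86 ± 0.15). CEP70, a centrosome protein, and CREB3L2, a membrane-bound transcription factor of the secretory pathway, rose by 2.87 and 2.62. HMGB3, a chromatin protein, rose by 2.62 ± 0.18, and its pseudogene HMGB3P1 by 1.77 ± 0.32. Signals of the pair cannot be told apart where their sequences match, and HMGB3P1 failed with any 1 array left out (adjusted p 0.0729 to 0.0882). GRB14, an adaptor that inhibits the insulin receptor, lay below 4 on both untreated arrays (3.27 and 3.55) and at 6.27 and 6.18 with dexamethasone, at least 4.67-fold higher when set against the level of 4. The potassium channel KCNJ15 likewise was at least 3.47-fold higher, at 5.77 and 5.82 against 3.48 and 3.49. GRB14 and KCNJ15 failed with any 1 array left out (adjusted p 0.0512 to 0.0855) and with no filter (adjusted p = 0.0546 and 0.0667).

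The 25 largest rises held 5 more genes. KLF2, described with the plasma cell factors, was 1 of them. The noncoding RNAs LITATS1 and PSMB8-AS1 rose by 2.95 ± 0.36 and 2.27 ± 0.30, the proline-rich protein gene PRR15 by 2.40 ± 0.16, and the threonyl-tRNA synthetase paralog TARS3 by 2.26 ± 0.36. TARS3 did not pass without replicate 2 of either group (adjusted p 0.0608 to 0.0651). BASP1, a membrane protein and corepressor, and CTHRC1, a secreted collagen triple helix protein, were among the 12 genes of the fit on 4 arrays, with differences of 1.71 and 1.85, and were singled out for that after their values were seen. For BASP1 the probe sets disagreed, and their mean differed by 0.80 (adjusted p = 0.0643).

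Of 13 tested members of the BCL2 family, which decide between survival and mitochondrial cell death, 3 rose and 1 fell (30.8%, against 4.66% of all genes). BMF, a BH3-only protein that promotes death, lay at 7.03 and 7.05 in untreated cells and at 8.91 on both dexamethasone arrays, a difference of 1.86 ± 0.11 (adjusted p = 2.25e-05). BCL2L11, which encodes the death-promoting protein BIM, lay at 9.55 and 9.59 and rose to 10.51 and 10.63 (difference 1.00 ± 0.11, adjusted p = 0.00132). The mean of its 6 probe sets, all of which were higher, differed by 0.80 and did not pass (adjusted p = 0.112). BCL2L1, which encodes the survival protein BCL-XL, fell from 10.65 and 10.55 to 9.53 and 9.58 (difference -1.05 ± 0.20, adjusted p = 0.0184). BCL2 itself, a survival gene, was higher by 0.93 ± 0.19 (adjusted p = 0.0268), but the mean of its 4 probe sets differed by 0.38 (adjusted p = 0.0973). BCL2L1 failed with any 1 array left out (adjusted p 0.0742 to 0.119), and BCL2 failed without either untreated array or replicate 2 of the dexamethasone group (adjusted p 0.114 to 0.173). MCL1, the survival protein on which plasma cells depend, lay at 11.55 and 11.66 untreated and 11.66 and 11.64 treated, a difference of 0.05 ± 0.08 that did not pass. The family's count of falls was 0 with any 1 array left out, and its count of rises was 2 in 3 of those 4 fits.

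**Figure D3:**
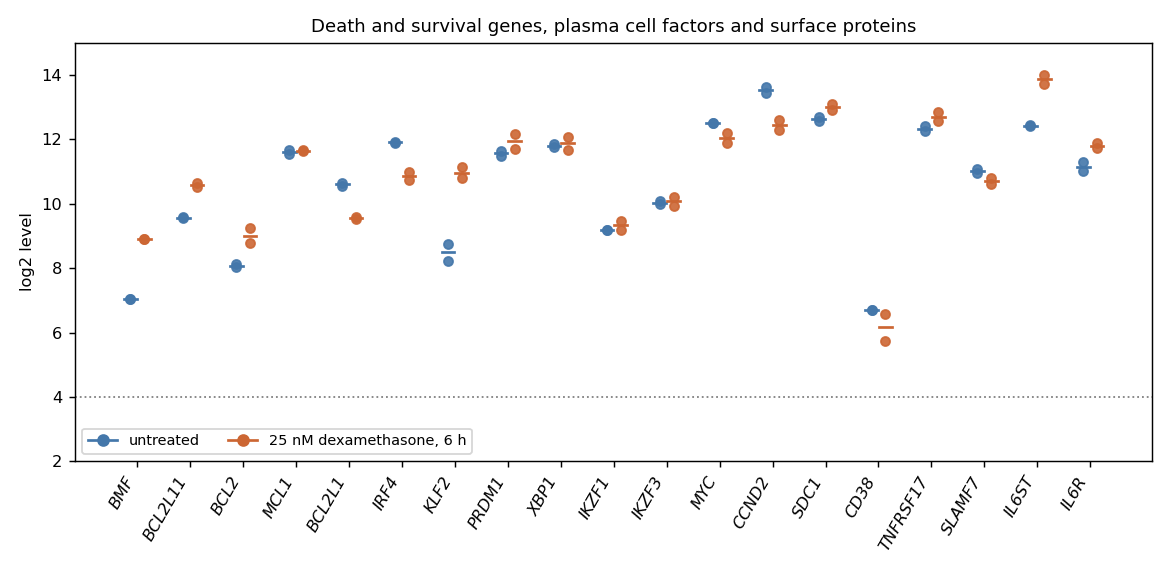
Log2 level on each array for genes of death and survival, plasma cell factors, cell cycle and surface proteins, with points, mean lines and the dotted level of 4 drawn for untreated and treated cells. BMF, BCL2L11, KLF2 and IL6ST lie higher with dexamethasone and BCL2L1, IRF4 and CCND2 lower, while MCL1, XBP1, IKZF1 and IKZF3 overlap between the groups.

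Among 20 tested transcription factors of plasma cells 4 rose and 1 fell (25%, against 4.66% of all genes). The fall was that of IRF4, on which myeloma cells depend. IRF4 lay at 11.88 and 11.93 in untreated and 10.72 and 10.97 in treated cells, a difference of -1.06 ± 0.11 (adjusted p = 0.000827), or 2.08-fold lower, and it passed whichever array was left out. KLF2, a zinc finger factor of lymphocyte quiescence and homing, rose from 8.23 and 8.75 to 10.80 and 11.12 (difference 2.47 ± 0.27, adjusted p = 0.00113). BACH2, a repressor that opposes plasma cell differentiation, rose by 0.89 ± 0.14, with a mean over its 2 probe sets of 2.02, but not without replicate 1 of the dexamethasone group or replicate 2 of the untreated group (adjusted p 0.0538 to 0.0599). ID2, an inhibitor of bHLH factors, and ELL2, the elongation factor of immunoglobulin processing, differed by 1.08 and 1.17 and failed with any 1 array left out (adjusted p 0.0519 to 0.229). PRDM1, XBP1, IKZF1 and IKZF3 did not pass. Their differences were 0.37 ± 0.21, 0.08 ± 0.28, 0.13 ± 0.16 and 0.04 ± 0.16. The coactivator gene POU2AF1 had a difference of -0.67 ± 0.18, which also missed the threshold (adjusted p = 0.0674). Its groups did not overlap, as was so for 45.7% of all genes.

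Of 24 tested surface proteins of plasma cells, 2 rose and 1 fell (12.5%, against 4.66% of all genes), namely CXCR4 and IL6ST upward and TFRC downward. IL6ST, which encodes gp130, the signalling chain of the interleukin 6 receptor, rose from 12.44 and 12.40 to 13.72 and 13.99 (difference 1.44 ± 0.21, adjusted p = 0.00450). The receptor's binding chain IL6R differed by 0.65 ± 0.16 and fell short of the threshold (adjusted p = 0.0585). Its groups did not overlap, as held for 45.7% of all genes. The antigens of myeloma therapy did not pass. SDC1, which encodes CD138, lay at 12.58 and 12.69 untreated and 12.92 and 13.08 treated (difference 0.37 ± 0.11). TNFRSF17, which encodes BCMA, and SLAMF7 differed by 0.38 ± 0.13 and -0.32 ± 0.15. CD38 lay at 6.70 on both untreated arrays but at 5.75 and 6.57 on the treated ones, so that its difference of -0.54 rested mainly on replicate 1.

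TFRC, the transferrin receptor that takes up iron, had 1 of the largest falls. It lay at 12.43 and 12.17 in untreated cells and at 10.16 and 9.71 with dexamethasone, a difference of -2.36 ± 0.28 (adjusted p = 0.00153), or 5.12-fold lower. It was the only 1 of 16 tested genes of iron handling that changed (6.25%, against 4.66% of all genes). STON2, an endocytic adaptor, fell from 6.06 and 5.72 to 2.32 and 2.35, which is close to the lowest value of the arrays. Set against the level of 4 it was at least 3.70-fold lower (adjusted p = 2.94e-07). IGFBP3, which binds insulin-like growth factors, fell from 7.92 and 7.99 to 5.32 and 5.89 (difference -2.35 ± 0.16, adjusted p = 6.09e-05). FRMD6, a FERM protein of the Hippo pathway, had a difference of -2.31 ± 0.23. The other large falls included CBLN2, a synaptic organizer (-1.56 ± 0.16), CABLES1, which binds cyclin-dependent kinases (-1.45 ± 0.20), KAZN, a junction protein (-1.37 ± 0.19), and TMEM178B, a membrane protein (-1.61 ± 0.21). All of the falls given in this paragraph passed in each fit with an array left out.

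A further set of large falls was less secure. GJA1, the gap junction protein connexin 43, lay at 9.84 and 9.73 and fell to 7.43 and 7.70, a difference of -2.22 ± 0.39. MCC, a tumour suppressor, had a difference of -1.53, OTUD6B, a deubiquitinase, of -1.88, and MTCL1, a microtubule protein, of -1.33. These 4 failed with any 1 array left out (adjusted p 0.0602 to 0.261). ANKRD37, a hypoxia-responsive gene, and STK38L, a kinase of the NDR family, differed by -1.65 and -1.75 and passed only without replicate 2 of the dexamethasone group (adjusted p 0.0642 to 0.144 in the other 3 fits). MARS2, the mitochondrial methionyl-tRNA synthetase, differed by -1.68, and the channel gene TRPM8, at 5.69 and 5.47 untreated and 3.94 and 3.94 treated, was at least 2.99-fold lower when set against the level of 4. They passed only without replicate 2 of the untreated group (adjusted p 0.0570 to 0.191 in the other 3). NAV2, a neuron navigator, differed by -1.74 but not past the threshold without replicate 1 of the dexamethasone group or replicate 2 of the untreated group (adjusted p 0.0622 to 0.0689), and KLHL2, a ubiquitin ligase adaptor, by -1.43 but not without replicate 1 of the untreated group or replicate 2 of the dexamethasone group (adjusted p 0.0566 to 0.0568). SLC16A9, a monocarboxylate transporter, and ITGB8, an integrin chain, lay below 4 with dexamethasone. They were at least 1.61-fold and 1.52-fold lower, and their calls were lost with levels below 4 raised to 4 (adjusted p = 0.274 and 0.529). Of the 14 arrays, SLC16A9 reached a log2 level of 4 only on the 2 untreated ones. It was thus tested only through the group where it was high, and that filter favoured its fall. SLC16A9 failed without replicate 1 or 2 of the dexamethasone group (adjusted p 0.0723 to 0.0749) and had no tested value without an untreated array, and ITGB8 failed with any 1 array left out (adjusted p 0.137 to 0.224).

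Of 27 tested genes of adhesion, chemokines and their receptors, 3 rose and 4 fell (25.9%, against 4.66% of all genes). With CXCR4 rose CCR2, a receptor of monocyte chemoattractants, from 7.41 and 7.19 to 8.40 and 8.68 (difference 1.24 ± 0.18, adjusted p = 0.00464). The chemokine receptor CX3CR1 differed by 1.31 ± 0.28 and failed with any 1 array left out (adjusted p 0.0523 to 0.173). ITGA8, an integrin chain, fell from 10.29 and 10.24 to 8.03 and 8.70 (difference -1.90 ± 0.19, adjusted p = 0.000824). CXCL10, an interferon-induced chemokine, lay at 6.63 and 4.94 in untreated and 4.05 and 3.66 in treated cells. Its untreated arrays were thus 1.70 apart, and its difference of -1.93 ± 0.43 passed only without replicate 2 of the untreated group (adjusted p 0.0724 to 0.207 in the other 3 fits). CCR1, another chemokine receptor, had a difference of -0.86 ± 0.19 that passed only without replicate 2 of the dexamethasone group (adjusted p 0.128 to 0.192 in the other 3). The fourth fall was that of GJA1. The count of falls was 1 or 2 with an array left out and 1 with no filter.

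Ribosome biogenesis factors, which process and assemble ribosomal RNA in the nucleolus, lay lower almost throughout. Of 61 tested, 7 fell (11.5%, where 2.18% of all genes fell) and none rose. Of the 61 differences 60 were negative, and the median was -0.51. In 52 both treated arrays lay below both untreated ones, where 23.3% of all genes did so. LYAR, a nucleolar growth regulator, fell from 9.40 and 9.10 to 7.88 and 7.78 (difference -1.42 ± 0.12, adjusted p = 0.000250). RRP15, a factor of the large subunit, fell from 8.52 and 8.50 to 7.25 and 7.48 (difference -1.15 ± 0.14). The helicase DDX21 fell from 11.70 and 11.67 to 10.80 and 10.77 (difference -0.90 ± 0.12), and so did WDR3, of the small subunit processome, with a difference of -0.81 ± 0.10. URB2, which acts on the large subunit, had a difference of -1.06 ± 0.15. These 5 passed whichever array was left out. NOP2, an rRNA methyltransferase, differed by -0.82 ± 0.17 and passed only without replicate 2 of the untreated group (adjusted p 0.0799 to 0.172 in the other 3 fits). BYSL, of the small subunit, differed by -0.64 ± 0.13 and failed with any 1 array left out (adjusted p 0.101 to 0.126). The number of falls moved with the setting, from 5 with no filter to 12 with quantile normalization, and no setting gave a rise. With the 4 arrays alone, where no gene at all passed as lower, 0 fell. At an unadjusted p under 0.05, 38 of the 61 passed.

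**Figure D4:**
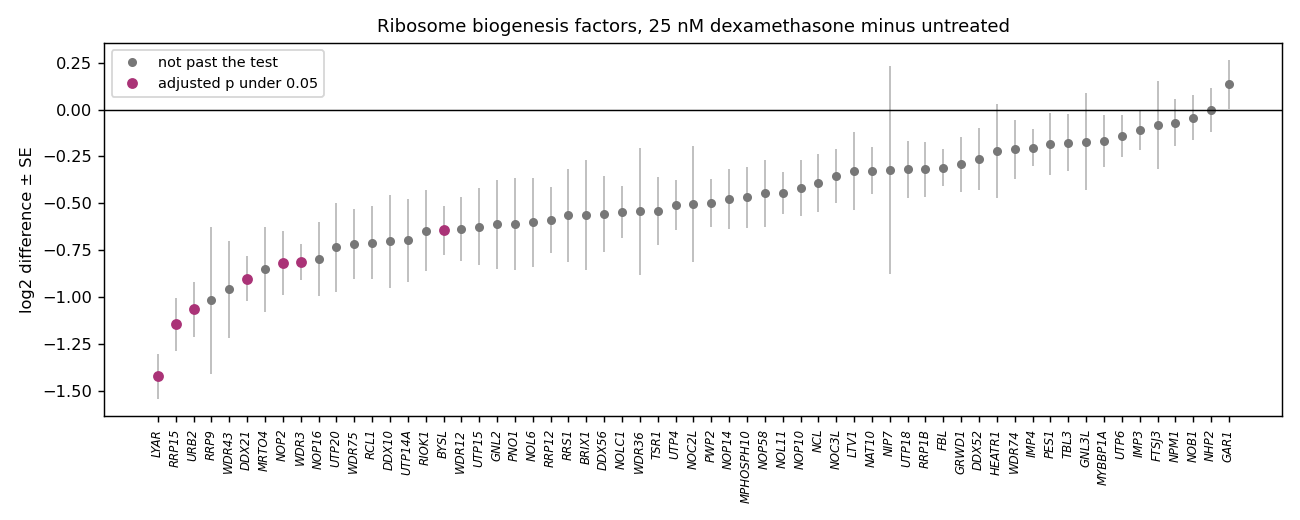
Log2 difference (25 nM dexamethasone minus untreated) with its SE for each of the 61 tested ribosome biogenesis factors, ordered by size, with those past an adjusted p of 0.05 in purple. All but GAR1, at 0.13, lie at or below 0, and LYAR is lowest at -1.42.

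Some genes that act beside them also fell. CCDC86, a nucleolar protein known as cyclon, fell from 10.86 and 10.76 to 9.02 and 8.98 (difference -1.81 ± 0.11, adjusted p = 2.80e-05). Of 26 tested genes of RNA polymerases I and III, 3 fell and none rose (11.5%, against 4.66% of all genes). POLR1G, a subunit of polymerase I, fell from 6.74 and 6.65 to 5.41 and 5.23 (difference -1.37 ± 0.17, adjusted p = 0.00207). POLR3K, of polymerase III, and UBTF, which recruits polymerase I, differed by -0.88 and -0.53 but failed with any 1 array left out (adjusted p 0.0527 to 0.253), so that the count was 1 in each such fit. Of 26 tested genes of nucleotide synthesis, 2 fell (7.69%, against 4.66% of all genes), with a median of -0.26. CTPS1, CTP synthase, fell from 9.53 and 9.42 to 8.42 and 8.19 (difference -1.17 ± 0.14, adjusted p = 0.00153). The purine enzyme PAICS had a difference of -0.80 ± 0.12 but did not pass without replicate 1 of the untreated or replicate 2 of the dexamethasone group (adjusted p 0.0531 to 0.0628). Of 17 tested genes of polyamine metabolism 2 fell (11.8%, against 4.66% of all genes). AMD1, which makes the aminopropyl donor, had a difference of -1.13 ± 0.16. Spermidine synthase SRM differed by -0.42, and its call was lost with any 1 array left out. ODC1, the rate-limiting enzyme, had a difference of -0.38 ± 0.12 and did not pass.

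The E-box CACGTG, a palindrome bound by MYC with MAX and by related factors, was searched in the same promoter windows. It occurred in 838 of 7721 windows (10.9%), in 14 of 197 of genes that rose (7.11%), in 27 of 179 of genes that fell (15.1%) and in 23 of 53 of the ribosome biogenesis factors tested (43.4%). Among the named genes that rose, TNFAIP3, HERPUD1 and ISG20 had a window with it. Among the ribosome biogenesis factors that fell, 2 of 6 windows held it. The 4 windows below belong to those 2, BYSL and NOP2, and to CCDC86 and POLR1G, and were chosen after their values were seen. All 4 genes fell, but BYSL and NOP2 failed in most or all fits with an array left out. LYAR, RRP15, DDX21, WDR3 and URB2, which passed in those fits, had no window with the E-box. The printed windows run 5′ to 3′ along each gene in GRCh38.p14, with the E-box in capitals. BYSL lies at chr6:41921249-41921548 (plus strand, E-box 28 bases after the start), NOP2 at chr12:6568242-6568541 (minus strand, 35 after), CCDC86 at chr11:60841863-60842162 (plus strand, 25 before) and POLR1G at chr19:45406394-45406693 (plus strand, 12 before).

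BYSL promoter: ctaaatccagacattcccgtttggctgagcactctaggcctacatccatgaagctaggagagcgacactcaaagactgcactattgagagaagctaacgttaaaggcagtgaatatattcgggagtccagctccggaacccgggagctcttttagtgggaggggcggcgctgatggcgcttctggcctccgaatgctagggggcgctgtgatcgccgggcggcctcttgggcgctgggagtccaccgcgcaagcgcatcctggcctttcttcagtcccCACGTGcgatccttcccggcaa
NOP2 promoter: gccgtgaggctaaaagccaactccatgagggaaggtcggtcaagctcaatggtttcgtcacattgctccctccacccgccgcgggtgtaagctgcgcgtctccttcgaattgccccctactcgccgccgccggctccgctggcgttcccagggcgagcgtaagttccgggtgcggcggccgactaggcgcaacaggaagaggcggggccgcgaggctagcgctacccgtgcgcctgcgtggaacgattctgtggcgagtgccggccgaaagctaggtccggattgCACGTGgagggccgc
CCDC86 promoter: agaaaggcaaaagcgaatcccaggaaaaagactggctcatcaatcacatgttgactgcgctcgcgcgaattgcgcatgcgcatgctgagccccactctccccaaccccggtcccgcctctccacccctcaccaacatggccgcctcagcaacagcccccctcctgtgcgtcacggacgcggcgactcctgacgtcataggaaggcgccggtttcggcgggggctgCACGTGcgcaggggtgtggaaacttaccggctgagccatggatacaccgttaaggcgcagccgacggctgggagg
POLR1G promoter: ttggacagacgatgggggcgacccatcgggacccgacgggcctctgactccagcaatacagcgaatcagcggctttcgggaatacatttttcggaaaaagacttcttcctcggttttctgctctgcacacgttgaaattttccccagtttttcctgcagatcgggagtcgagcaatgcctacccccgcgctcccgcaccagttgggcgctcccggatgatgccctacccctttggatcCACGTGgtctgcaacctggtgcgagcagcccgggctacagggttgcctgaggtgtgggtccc

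MYC itself missed the threshold. It lay at 12.49 and 12.50 in untreated and 11.90 and 12.18 in treated cells, a difference of -0.46 ± 0.12 (adjusted p = 0.0738). The groups did not overlap, which was so for 45.7% of all genes. Of the 17 tested genes of the MYC network none passed in limma, although 7 reached an unadjusted p under 0.05, and the median was -0.28. With quantile normalization 1 fell, and 2 fell with a variance trend and with the replicate number as a block. Of 30 tested genes of the amino acid response and the aminoacyl-tRNA synthetases 3 fell and 1 rose (13.3%, against 4.66% of all genes). PSAT1, of serine synthesis, differed by -1.06 ± 0.20, the glutamine carrier SLC1A5 by -0.53, the isoleucyl-tRNA synthetase IARS1 by -0.46 and the carrier SLC38A2 by 0.57. PSAT1 passed only without replicate 1 of the untreated group, and the others failed with any 1 array left out (adjusted p 0.0549 to 0.253). Of 43 translation factors 3 fell (6.98%, against 4.66% of all genes). These were the initiation factor subunits EIF2S1 and EIF2S2 and the release factor ETF1, with differences of -0.53, -0.42 and -0.52. Their calls were lost with any 1 array left out.

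Cell cycle genes differed by list at 6 h. Of 28 tested cyclins of G1 and brakes of the cycle, 2 rose and 3 fell (17.9%, against 4.66% of all genes). CCND2, a D cyclin that drives entry into the cycle, fell from 13.44 and 13.64 to 12.29 and 12.60 (difference -1.09 ± 0.14, adjusted p = 0.00211), or 2.13-fold lower, and passed whichever array was left out. BTG3, an antiproliferative factor, fell (difference -0.94 ± 0.12), while its relative BTG1 rose. The cyclin CCND3 and the phosphatase CDC25A differed by 0.62 and -0.84 and failed with any 1 array left out (adjusted p 0.0537 to 0.173). The inhibitor CDKN1B, which encodes p27, overlapped between the groups with a difference of 0.03 ± 0.20. Of 47 tested DNA replication genes none passed in limma and 15 reached an unadjusted p under 0.05. Of these 47 differences 37 were negative, with a median of -0.19 and a range from -0.77 to 0.40. Of 50 mitosis genes 1 rose and 1 fell (4.0%, near the share of all genes), and the median was 0.20. These were cyclin CCNB2, which differed by 0.53 and passed only without replicate 1 of the untreated group (adjusted p 0.0723 to 0.177 in the other 3 fits), and the ubiquitin-conjugating enzyme UBE2S, which differed by -0.84 and failed with any 1 array left out (adjusted p 0.101 to 0.173).

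In the secretory pathway, which carries antibody out of plasma cells, 2 of 48 tested genes rose and 3 fell (10.4%, against 4.66% of all genes). Beside CREB3L2, HERPUD1, of the degradation of misfolded proteins, differed by 1.02 ± 0.16, but not without replicate 1 of the untreated or replicate 2 of the dexamethasone group (adjusted p 0.0559 to 0.0598). The thioredoxin protein TXNDC11 fell from 11.95 and 11.97 to 11.24 and 11.35 (difference -0.67 ± 0.10, adjusted p = 0.00412). SEL1L and EDEM1, which act in the same degradation, differed by -0.80 and -0.67 and failed with any 1 array left out (adjusted p 0.0760 to 0.192). None of 34 proteasome genes passed in limma or in any alternative, while 5 reached an unadjusted p under 0.05. Of 28 genes of cholesterol and fatty acid synthesis 2 fell (7.14%, against 4.66% of all genes) and 24 differences were negative. Fatty acid synthase, FASN, differed by -0.87 ± 0.13 and the sterol reductase DHCR7 by -0.86 ± 0.15. FASN failed without replicate 1 of the dexamethasone or replicate 2 of the untreated group (adjusted p 0.0512 to 0.0570), and DHCR7 passed only without replicate 1 of the untreated group (adjusted p 0.0729 to 0.0864 in the other 3 fits). Of 40 genes of autophagy and the lysosome 2 rose (5.0%, near the 4.66% of all genes changed), the autophagy receptor NBR1 and the lysosomal regulator TFEB, by 0.86 and 0.83. NBR1 passed only without replicate 2 of the untreated group and TFEB only without replicate 2 of the dexamethasone group (adjusted p 0.0608 to 0.226 in the other fits).

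In the lists of inflammation and cytokine signalling, 4 of 22 NF-kappaB, AP-1 and inflammatory genes passed (18.2%, against 4.66% of all genes), with 2 higher and 2 lower. The stress factor ATF3 fell from 7.96 and 7.74 to 6.93 and 6.70 (difference -1.04 ± 0.15, adjusted p = 0.00412), but its 2 probe sets disagreed in sign, and their mean of -0.52 did not pass (adjusted p = 0.105). The rises were NFKBIA and TNFAIP3, and the second fall was CXCL10. Of 17 interferon response genes 1 rose (5.88%, near the share of all genes), the exonuclease ISG20, from 10.72 and 10.89 to 12.76 and 12.77 (difference 1.96 ± 0.11, adjusted p = 1.85e-05). Of 31 genes of interleukin 6 and JAK signalling, IL6ST rose and 2 fell (9.68%, against 4.66% of all genes). These were the survival kinase PIM2, which differed by -0.63 ± 0.13 and failed with any 1 array left out, and the receptor IL21R, which differed by -1.21 ± 0.27 and passed only without replicate 2 of the dexamethasone group (adjusted p 0.0934 to 0.171 in the failing fits). Of 19 MAP kinase genes 2 rose and 1 fell (15.8%, against 4.66% of all genes). The stress kinase MAP3K5 rose by 1.49 ± 0.20 (adjusted p = 0.00346). MAP2K1, which encodes MEK1, differed by 0.59 but did not pass without replicate 2 of either group, and the phosphatase DUSP14 differed by -0.47 but failed with any 1 array left out (adjusted p 0.0622 to 0.183). Of 25 clock and Kruppel-like genes 3 rose, namely NFIL3, KLF2 and KLF9, where 2.47% of all genes rose. None of 9 metallothionein genes passed in limma, with 1 at an unadjusted p under 0.05. Of 34 genes of glycolysis and the hypoxia response, P4HA1, PFKFB2 and DDIT4 rose, and ANKRD37, the kinase HK2 and the factor HIF1A fell (17.6%, against 4.66% of all genes). The differences of HK2 and HIF1A, -1.07 and -0.78, failed with any 1 array left out (adjusted p 0.0754 to 0.231).

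The same dose of dexamethasone was also given together with salmeterol or CGS-21680. The differences of those cells from cells given the agonist alone came from 4 further arrays each, none of them shared with the comparison above. The spread of each gene was estimated from all 14 arrays for every comparison, so the calls are not independent of each other. Dexamethasone added to salmeterol changed 1512 genes (16.3%), 906 higher and 606 lower, and dexamethasone added to CGS-21680 changed 1279 (13.8%), 559 higher and 720 lower. With quantile normalization the share of rises among the genes changed beside salmeterol was 46.4% in place of 59.9%. Of the 230 genes that rose without an agonist, 181 (78.7%) also rose with salmeterol, where 9.74% of all genes did, and 182 (79.1%) with CGS-21680, where 6.01% did. These shared genes made up 20.0% of the rises with salmeterol and 32.6% of those with CGS-21680. Of the 203 genes that fell, 146 (71.9%) fell with salmeterol and 167 (82.3%) with CGS-21680, against 6.52% and 7.74% of all genes, and they made up 24.1% and 23.2% of the falls there. Rises seen in all 3 settings numbered 169 and falls 142, while 36 rises and 32 falls were called in neither agonist setting. Across all 9301 genes the log2 difference without an agonist correlated at 0.629 with that beside salmeterol and at 0.764 with that beside CGS-21680, where the genes of an array are not independent replicates.

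**Figure D5:**
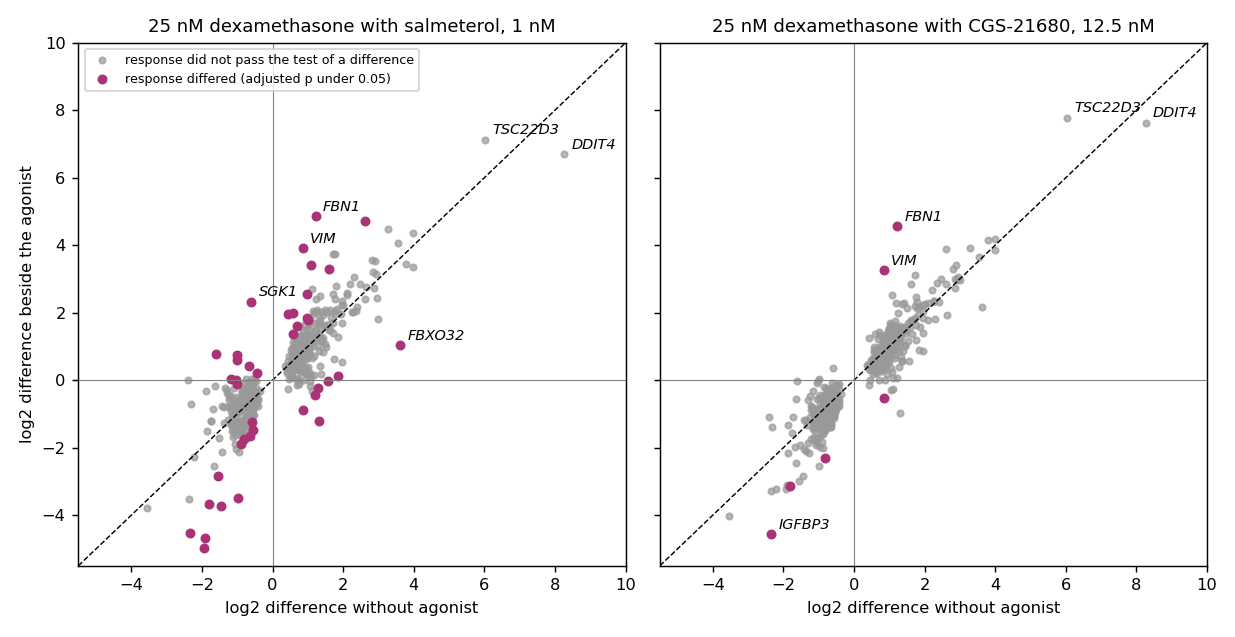
Log2 difference made by 25 nM dexamethasone in the 433 changed genes, without an agonist (horizontal axis) and beside salmeterol (left) or CGS-21680 (right; vertical axes), with genes whose responses differed past an adjusted p of 0.05 in purple and the dashed line marking equal responses. Most genes lie near the line, and SGK1, FBN1 and VIM lie far above it beside salmeterol.

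Several genes already described had responses of the same direction in the other settings. DDIT4 rose by 6.70 ± 0.39 beside salmeterol and 7.62 ± 0.39 beside CGS-21680, FKBP5 by 4.35 and 4.20, and TSC22D3 by 7.12 and 7.77. BMF rose by 1.28 and 1.57, BCL2L11 by 1.21 and 1.52, and KLF2 by 2.85 and 2.99. Differences for IRF4 were -1.50 and -1.78, for BCL2L1 -2.03 and -1.85, for TFRC -3.51 and -3.30, and for CCND2 -1.52 and -1.79. All of these passed in both settings. BCL2L1, KLF9, GRB14 and GJA1, which failed without an array in the comparison with untreated cells, passed in both agonist settings. The differences were 1.97 and 1.65 for KLF9, 3.56 and 3.28 for GRB14, and -2.28 and -3.24 for GJA1. They are picked examples, and other genes that failed such a fit went otherwise. BACH2 had differences of 0.00 and 0.01 in the agonist settings and passed in neither. Of the ribosome biogenesis factors, 37 of 61 fell beside salmeterol and 42 beside CGS-21680, with none higher and medians of -0.75 and -0.81. Of the heat shock proteins and chaperonins, 15 and 17 of 32 fell and 1 and 0 rose. Of the 33 glucocorticoid-induced genes 23 and 21 rose and 1 fell in either setting. Of the FOXO and atrophy genes 15 and 12 of 28 rose and 0 and 1 fell. Of all genes 9.74% rose and 6.52% fell beside salmeterol, and 6.01% rose and 7.74% fell beside CGS-21680.

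A test of the difference between the responses with and without the agonist passed for 150 genes with salmeterol (1.61%; 111 with the higher response beside the agonist) and for 14 with CGS-21680 (0.151%). With quantile normalization the share of the higher among the former was 62.9% in place of 74.0%. Of the 433 genes changed without an agonist, 40 were among the former and 6 among the latter. SGK1 stood out. It was lower with dexamethasone alone, by 0.60, a call that was lost with any 1 array left out. Beside salmeterol it rose by 2.33 ± 0.13, a difference between responses of 2.93 ± 0.18 (adjusted p = 0.000121). VIM, the intermediate filament protein vimentin, rose by 0.85 alone and by 3.91 and 3.26 beside the agonists, and FBN1, the matrix protein fibrillin 1, by 4.86 and 4.57 beside them. FBN1 lay below 4 in untreated cells (3.63 and 3.63) and at 4.75 and 4.96 with dexamethasone alone, at least 1.81-fold higher. VIM failed with any 1 array left out (adjusted p 0.0705 to 0.133), and the mean of the probe sets of FBN1 did not pass (adjusted p = 0.0540). FBXO32 rose less beside salmeterol, by 1.03 against 3.62 (difference -2.59 ± 0.42, adjusted p = 0.0163). MYC, which missed the threshold alone, fell by 2.61 beside salmeterol and fell by 1.73 beside CGS-21680, and both differences from the response without an agonist passed (adjusted p = 0.000537 and 0.0338). Genes called in opposite directions were CX3CR1 and the F-box gene FBXL12, higher alone and lower beside salmeterol, with FBXL12 also lower beside CGS-21680, and TMEM178B, the Fanconi anaemia ligase FANCL, the calcium pump ATP2A2 and SGK1, lower alone and higher beside salmeterol. CX3CR1, FANCL and ATP2A2 failed with some or all single arrays left out (adjusted p 0.0523 to 0.173), and the mean of the probe sets of ATP2A2 did not pass (adjusted p = 0.240). VIM, FBN1, CX3CR1, FBXL12, FANCL and ATP2A2 were chosen after their values were seen.

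Dexamethasone at 2 µM was set against 25 nM to see whether the higher dose did more. No gene differed between the doses in limma (0 of 9301, 0.0%), and 328 reached an unadjusted p under 0.05. Without replicate 1 of the high dose 60 genes passed, without replicate 2 of the high dose 2, with no filter 14, and with the mean of the probe sets 1. For FKBP5 the high minus low difference was 0.17 ± 0.08, for TSC22D3 0.44 ± 0.24, for DDIT4 0.41 ± 0.39, for BMF 0.13 ± 0.11, for CXCR4 0.58 ± 0.19, for IRF4 -0.20 ± 0.11 and for TFRC -0.71 ± 0.28. A miss of the threshold with 2 arrays a dose does not show that the doses act alike. Against the same untreated arrays the high dose changed 798 genes (8.58%), and since the untreated arrays are shared, the values are given side by side only. Over the 230 genes that rose with 25 nM the median log2 difference was 1.02 at 25 nM and 1.20 at 2 µM, and over the 203 that fell -0.83 and -0.84. Both sets were chosen by their test at 25 nM, which favours larger differences at that dose, so these medians do not compare the doses evenly.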

How the data were processed

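Total RNA of MM1S cells was measured on 14 single-channel Affymetrix arrays, 2 for each of 7 groups. Intensity values, normalized by the authors with GCRMA (per the submitters' processing notes, no version given), were deposited on a linear scale for 54675 probe sets, and log2 was taken here. The symbols came from the platform annotation. Of the probe sets 41097 had 1 symbol, 1801 several (not used) and 11777 none listed.

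Group means over all 14 arrays were fitted with limma 3.58.1 in R 4.3.3 (7 residual degrees of freedom), contrasts were tested two-sided with moderated statistics, and p-values were adjusted by Benjamini-Hochberg over the 9301 genes, with a threshold of 0.05. The fit was tested on simulated data. An exact test of 2 against 2 arrays cannot go below p = 0.333.

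The members and lists were chosen with earlier results of these data known. Named are the 25 largest rises and 25 largest falls, up to 4 changed members of each list by smallest adjusted p, and 37 preset genes. The other 30 of the 155 genes were added after their values were seen. Promoters were read from a RefSeq table (GRCh38.p14), which held 7721 of the tested genes. Alternatives were quantile normalization, other filters, the mean of a gene's probe sets, levels below 4 raised to 4, a variance trend, a replicate block, the 4 arrays alone, and each array left out.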

Additional observations from a re-analysis of the deposited data

Results flagged for a closer look

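The response to 25 nM dexamethasone differed with and without an agonist, by limma's test of the difference between responses at an adjusted p under 0.05, in the named genes that follow. Each value is the log2 response beside the agonist minus that without it. The responses without an agonist come from the untreated and low-dose arrays, 2 of each, and leaving out any of these lowered the number of genes called (82 to 99 of 150 for salmeterol and 2 to 9 of 14 for CGS-21680).

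Beside salmeterol the response was higher for FBN1 (3.63), the matrix protein fibrillin 1, VIM (3.06), the filament protein vimentin, SGK1 (2.93), TMEM178B (2.39), ID2 (2.32), HMGB3 (2.10), FANCL (1.76), INSR (1.69), ZBTB16 (1.58), TNFAIP3 (1.54), MAP2K1 (1.40), ATP2A2 (1.09), ATF3 (1.06), NFIL3 (0.86), SLC38A2 (0.81) and CARM1 (0.64). The values of ZBTB16 and FBN1 are not measured on both sides, since ZBTB16 lay below 4 on every array of the comparison but the 2 with both dexamethasone and salmeterol, and FBN1 on both untreated arrays. SGK1, ATP2A2, FANCL and TMEM178B were lower with dexamethasone alone and higher beside salmeterol. It was lower for the chemokine CXCL10 (-3.03), the integrin chain ITGA8 (-2.77), FBXO32 (-2.59), CX3CR1 (-2.50), CABLES1 (-2.27), IGFBP3 (-2.18), MYC (-2.16), CCDC86 (-1.84), FBXL12 (-1.76), CTHRC1 (-1.73), CBLN2 (-1.28), SLAMF7 (-1.19), SDC1 (-1.07), PIM2 (-1.03), DDX21 (-0.98) and WDR3 (-0.92). IGFBP3 fell by 4.53 beside salmeterol, against a response of -2.35 without it, while FBXO32 rose by 1.03 against 3.62.

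Beside CGS-21680 the response was higher for FBN1 (3.34, with levels below 4 on the untreated arrays and on those with CGS-21680 alone) and VIM (2.41) and lower for IGFBP3 (-2.22), WDR3 (-1.49), FBXL12 (-1.38), CCDC86 (-1.31) and MYC (-1.28). These 7 genes also differed beside salmeterol, in the same direction. Both sets use the same untreated and low-dose arrays, so they are not independent of each other.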

How the results depend on the processing

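With quantile normalization the share of rises among the changed genes went from 59.9% to 46.4% beside salmeterol and from 50.9% to 42.9% for the high dose, so that falls became the majority. No named gene that passed the test with 25 nM dexamethasone changed sign under an alternative run, though ZBTB16 came to no difference with levels below 4 raised to 4. NR3C1, MCL1, XBP1, IKZF3 and CDKN1B, which did not pass, changed sign under at least 1. The number of genes changed by 25 nM dexamethasone, 433 (230 higher and 203 lower), fell to 281 with no filter (152 and 129) and to 12 with the 4 arrays alone (12 and 0). With each of the 4 arrays left out in turn it was 187 to 221, with 113 to 129 higher and 70 to 92 lower. It was 503 with quantile normalization and 420 with the mean of the probe sets. Beside salmeterol the 1512 changed genes became 912 to 1080 with an array left out, and beside CGS-21680 the 1279 became 816 with no filter. The differences between responses numbered 82 to 132 for salmeterol (150 with all arrays) and 2 to 16 for CGS-21680 (14 with all arrays) with an array left out. For CGS-21680 they numbered 24 with no filter and 22 with the mean of the probe sets. The high against the low dose gave 0 genes, 14 with no filter, 1 with the mean of the probe sets and 0 to 60 with an array left out. The high dose against untreated cells gave 798, 497 with no filter and 342 to 1066 with an array left out. Of the 155 named genes, 45 lost their call with no filter, 20 with the mean of the probe sets, 126 with the 4 arrays alone and 61 to 68 with an array left out.

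The labels link same-numbered replicates by the number alone, and whether those arrays were handled together is not given. Deviations of same-numbered arrays of the untreated and low-dose groups correlated at 0.105, and over the 21 pairs of groups the correlation ran from -0.173 to 0.255, with 12 over 0.1. With the replicate number as a block 547 genes changed with 25 nM dexamethasone, the differences for CGS-21680 numbered 22, and 4 named genes lost their call.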
